A study of Homo sapiens with 82 samples.

Results

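In HT29 cells, an established human colorectal cancer cell line, RNA polymerase II (RNAP2) peaks found in DMSO-treated cells were compared with those found after 24 and 48 h of 10 μM GW3965, a synthetic agonist of the liver X receptors (LXRs). A site was the merged span of overlapping peaks from both replicates of a group, and a site of the DMSO group was taken as lost when it overlapped no RNAP2 site of 24 h and none of 48 h by at least 1 bp. This rule selected 5832 of the 26581 RNAP2 sites of DMSO-treated cells, or 21.9% (95% Wilson interval 21.4% to 22.4%, which covers counting error only). Another 15644 sites (58.9%) overlapped a GW3965 site at both times and are called retained, while 3151 were missing at 24 h alone and 1954 at 48 h alone. In all, 33.8% of the DMSO sites had no site at 24 h and 29.3% had none at 48 h. Because the lost sites were chosen by the RNAP2 peaks of these 6 libraries, their number and their RNAP2 scores are given as a description without a test, and the word lost refers to the peak lists and not to a measured number of polymerases.

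The series lists 82 samples, of which 34 ChIP-seq libraries (17 groups of 2 replicates) and 32 RNA-seq libraries (8 groups of 4 replicates) were used. RNAP2 and the acetylated histone H3K27ac were profiled in parental HT29 cells treated with DMSO, with GW3965 for 24 or 48 h, or with 10 μM rosiglitazone, an agonist of PPARG, for 24 or 48 h. LXRB was profiled in parental cells after 2 and 48 h of GW3965 and PPARG after 2 and 48 h of rosiglitazone, while JunD was profiled in DMSO-treated cells. LXRA was profiled after 2 and 48 h of GW3965 in stably transfected, G418-selected HT29 cells that carry LXRA with a C-terminal 3X-Flag tag, so its sites come from an added receptor in another cell population than the RNAP2 sites. For DMSO-treated cells the ChIP-seq labels state no duration. RNA came from cells treated with DMSO, GW3965, T0901317 (a further LXR agonist) or rosiglitazone for 24 or 48 h, and cells were kept in phenol-red-free medium with charcoal-treated serum.

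RNAP2 transcribes all protein-coding genes. After initiation it often pauses just downstream of the start site, where the factors NELF and DSIF hold it until the kinase P-TEFb, formed by CDK9 and a cyclin T, releases it into elongation, and it is also found at active enhancers. H3K27ac marks active promoters and enhancers. LXRA and LXRB bind DNA as heterodimers with RXR, and JunD is a subunit of AP1, a transcription factor that acts at many enhancers of epithelial cells.

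RNA markers went with the colon epithelial origin of the HT29 label, and no trait particular to this line was examined. All 10 colon epithelium markers were detected in each of the 32 RNA-seq libraries, from CDX1 at 0.73 to 4.05 CPM (gene counts scaled to library size) up to KRT8 at 7231 to 10977 CPM, while the leukocyte markers PTPRC and CD3E, the fibroblast marker COL1A2 and the hepatocyte marker ALB reached at most 6 counts in any library. COL1A1, a collagen gene of fibroblasts, lay between 2.42 and 8.51 CPM. RNA-seq libraries held between 30834003 and 51332656 counts in the DMSO and GW3965 groups. For ChIP-seq the read depth is unknown here, and the number of RNAP2 peaks per library was 30638 and 35010 with DMSO, 27260 and 27249 at 24 h of GW3965, 32831 and 28897 at 48 h, 35934 and 30926 at 24 h of rosiglitazone, and 34742 and 29289 at 48 h. RNAP2 peaks of each group were called against an input library of that group's own, so treatment and input cannot be told apart in these lists.

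Lost sites were mostly weak RNAP2 sites. The deposited peak score is −10·log10 of the p-value, with a floor of 100, and each site was given the lower of its 2 replicate scores. This lower score ran from 100.02 to 760 at lost sites with a median of 138 and quartiles of 116 and 177, while retained sites had a median of 388 and quartiles of 241 and 634. The scores of the 2 DMSO replicates at lost sites had the same median of 162. Lost sites were also narrower, with a median width of 973 bp against 1672 bp. The widest lost site spanned 7644 bp.

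The share of lost sites fell steeply with the score. Of 2883 DMSO sites with a lower score of 100 to 120, 60.8% were lost, against 49.4% at 120 to 150, 32.7% at 150 to 200, 15.99% at 200 to 300, 3.24% at 300 to 500 and 0.344% at 500 and over. Only 20 of the 5819 sites in the highest class were lost. A similar gradient was seen between the 2 DMSO libraries, in which no drug differed. Of DMSO Rep2 peaks, 62.1%, 48.5%, 30.8%, 14.7%, 3.64% and 0.270% of the same score classes had no Rep1 peak, and of Rep1 peaks 42.5%, 26.6%, 12.6%, 2.65%, 0.176% and 0.0159% had no Rep2 peak. The share of sites lost with GW3965 lay close to the share of DMSO Rep2 peaks without a Rep1 peak. It lay above the share of Rep1 peaks without a Rep2 peak in every class. The measures are unlike, since peaks were classed by their own score and sites by the lower of 2 scores. Lost sites also had by definition a peak in both DMSO replicates. The part of replicate differences in the loss was not tested.

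**Figure D1:**
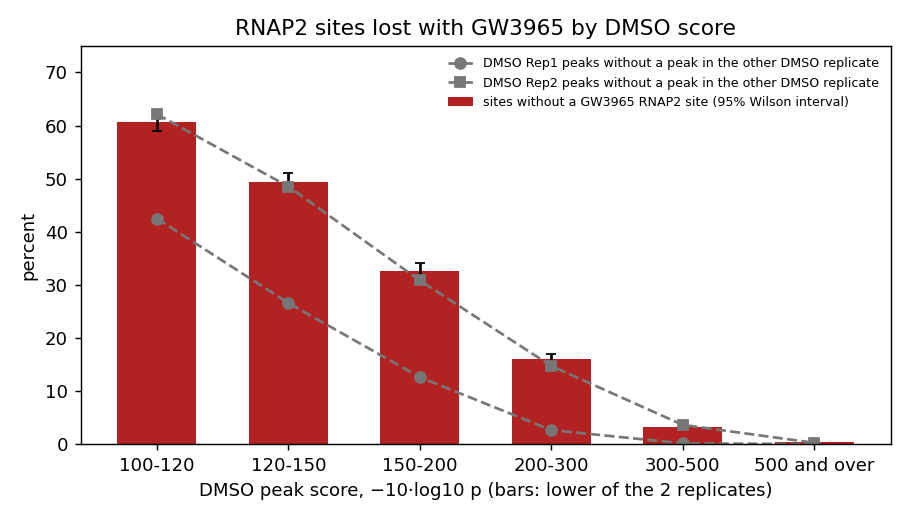
Bars give the percent of DMSO RNAP2 sites without a GW3965 site in classes of the DMSO score (−10·log10 p, lower of the 2 replicates), with 95% Wilson intervals, and dashed lines give the percent of peaks of 1 DMSO replicate that lacked a peak in the other. The bars fall from 60.8% to 0.344% and lie near the line for DMSO Rep2 and above the line for DMSO Rep1. The lines class single-library peaks by their own score.

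Many lost sites still had an RNAP2 peak in a single GW3965 library. No peak was found in any of the 4 GW3965 libraries at 2241 lost sites (38.4%), whose median lower score was 127. A peak in 1 library was found at 2418 sites (41.5%, median lower score 143), in 2 libraries at 1159 sites (19.9%, median lower score 156), in 3 libraries at 13 sites and in all 4 at 1 site, where the replicates' peaks did not overlap each other at the lost site. By library, peaks were present at 31.7% and 20.1% of lost sites at 24 h of GW3965 and at 20.2% and 9.95% at 48 h, with median scores between 123 and 150. In the rosiglitazone libraries, which the rule did not use, the shares were 63.6% and 65.3% at 24 h and 44.8% and 58.9% at 48 h. The count of lost sites moved with the DMSO libraries: with the peaks of DMSO Rep2 alone as the starting sites 10290 were lost (29.4%), and with those of DMSO Rep1 alone 8906 (29.1%).

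**Figure D2:**
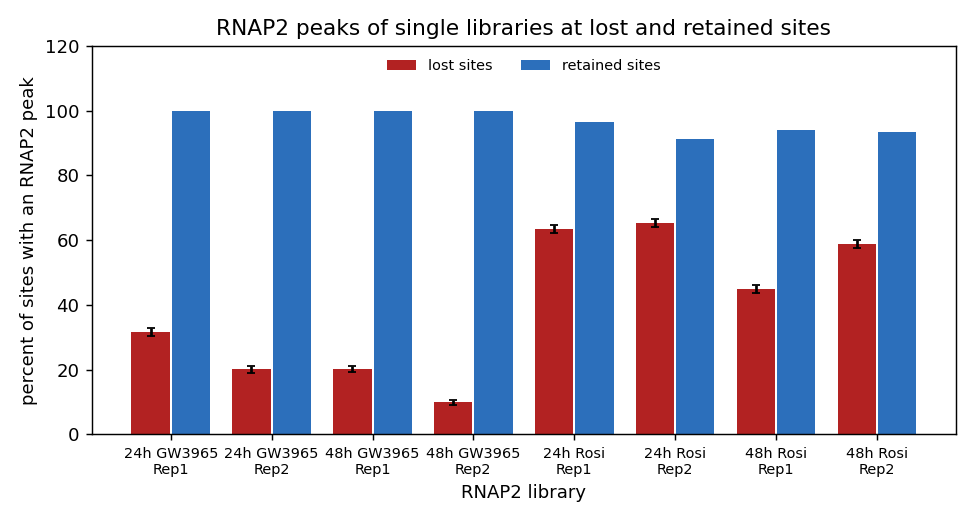
Bars give the percent of lost sites (red, 95% Wilson intervals) and of retained sites (blue) that overlap an RNAP2 peak of each single GW3965 or rosiglitazone (Rosi) library. Lost sites reach 9.95% to 31.7% in GW3965 libraries, which the rule used, and 44.8% to 65.3% in rosiglitazone libraries, which it did not use.

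The 6 lost sites with the highest lower score show how different single sites were. Coordinates refer to hg19, the build in the submitters' processing notes. The site chr4:89363517-89367589 had the highest, with scores of 1033 and 760 in the DMSO replicates, no peak in any GW3965 library, and 1 other peak, in the first library of 24 h of rosiglitazone (425). At chr17:6678402-6680475 the DMSO scores were 614 and 691, and none of the other libraries had a peak. The site chr21:42807696-42811986 scored 1217 and 700 with DMSO and had only weak peaks elsewhere, of 140 in the first library of 48 h of GW3965 and 139 in the first of 24 h of rosiglitazone. These 3 strong sites carried no H3K27ac, JunD, LXR or PPARG peak in any library.

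The other 3 strong sites were bound by JunD and kept RNAP2 with rosiglitazone. At chr3:98557903-98561353 the DMSO scores of 641 and 626 stood beside 1740 and 3100 at 24 h and 983 and 707 at 48 h of rosiglitazone, while GW3965 left 1 peak of 388 in the second library of 24 h. JunD scored 392 and 238 there, and no H3K27ac or LXR peak was present. At chr10:11580757-11582195 the DMSO scores were 663 and 634, JunD scored 337 and 547, and LXRA (404 and 889) and LXRB (235 and 252) were present at 48 h of GW3965. RNAP2 scored 865 and 674 at 24 h and 260 and 483 at 48 h of rosiglitazone at that site. With GW3965 that site had single RNAP2 peaks of 157 at 24 h and 142 at 48 h. The site chr10:95307924-95309244, with DMSO scores of 607 and 651, carried H3K27ac in both libraries of all 5 H3K27ac groups. The H3K27ac scores lay between 205 and 681, so that an RNAP2 site was absent from the GW3965 lists while acetylation was present. Single GW3965 libraries still had an RNAP2 peak there, of 205 at 24 h and 107 at 48 h.

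The rule's edge was narrow for few sites. The lost sites nearest to a GW3965 site lay 8, 11 and 25 bp from one, the latter 2 at chr1:94696517-94698414 and chr19:55705359-55706194, and 42 lost sites were less than 100 bp away. The DMSO sites with the smallest overlap that were not lost shared 10 bp (chr2:208395249-208396884), 20 bp (chrX:45662819-45663656) and 21 bp with a GW3965 site, and 9 such sites shared less than 100 bp. The median distance from a lost site to the nearest GW3965 RNAP2 site was 19444 bp, with 245 (4.20%) closer than 500 bp and 946 (16.2%) at least 100000 bp away. These distances count GW3965 sites of either time. To the nearest retained site the median was 33014 bp from a lost site, with 25.9% within 10000 bp. From a retained site to the nearest other retained site it was 19189 bp, with 37.3% within 10000 bp.

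Most lost sites stood alone. Lost sites were joined into a run when they followed each other among all DMSO RNAP2 sites with a gap under 10000 bp. By this measure 5109 lost sites (87.6%) were single, and 290 runs held 2 sites. The longest run, chr1:94655357-94698414, held 14 lost sites over 43058 bp with lower scores of 101 to 407. Of these 14 sites 12 carried JunD, 14 had an RNAP2 site with rosiglitazone, and 0 had H3K27ac in DMSO or an LXR site. A run of 9 lost sites over 30346 bp at chr14:100807302-100837647 also had an RNAP2 site with rosiglitazone at all 9 but JunD at 0. A run of 6 at chr3:98557903-98575913 had JunD at 4 and RNAP2 with rosiglitazone at 6. Runs of 6 at chr21:42746137-42766719 and chr3:122405670-122443532 had RNAP2 with rosiglitazone at 1 and 0 sites and JunD and LXR at 0. The runs are single stretches, so their sites are not independent of each other. By chromosome, the share of DMSO sites that were lost ran from 15.4% on chromosome 17 to 26.7% on chromosome 21.

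Acetylation at lost sites was sparse in every condition. An H3K27ac site of DMSO-treated cells was present at 1730 lost sites, or 29.7% (28.5% to 30.8%), against 75.1% of retained sites. A gap was also present among weak sites of both kinds, since with a lower score of 100 to 200 the shares were 27.97% of 4826 lost sites and 61.6% of 2611 retained sites. By library, H3K27ac peaks were present at 31.0% and 44.1% of lost sites with DMSO, 39.9% and 32.8% at 24 h of GW3965, and 42.4% and 37.0% at 48 h. With rosiglitazone the shares were 43.8% and 44.0% at 24 h and 48.0% and 40.7% at 48 h. The DMSO and GW3965 libraries overlapped. At retained sites the share was 76.3% to 83.6% over the same 10 libraries.

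Whether acetylation at lost sites went down with GW3965 was tested on the share at lost sites minus the share at retained sites within each library. The libraries held between 23015 and 31824 H3K27ac peaks, and the part of this number in the difference was not tested. This difference was −45.4 and −36.8 percentage points with DMSO, −41.1 and −44.3 at 24 h and −41.2 and −42.4 at 48 h of GW3965. The mean was −41.1 points over 2 DMSO libraries and −42.3 over 4 GW3965 libraries, a difference of −1.19 points that lay within the spread of the DMSO pair (two-sided exact permutation test over libraries, p = 0.667, where the smallest p this design allows is 0.133). With rosiglitazone the difference from DMSO was 3.17 points (p = 0.533 in the same exact test). The direction was not stable, since without the second DMSO library of H3K27ac the GW3965 difference was 3.12 points. Over all lost sites, a decrease of acetylation beyond the library spread was therefore not detectable with these libraries. By class of RNAP2 score, H3K27ac sites lay at 26.3%, 23.2% and 29.5% of lost sites of 100 to 120 with DMSO, 24 h and 48 h of GW3965. The shares were 36.9%, 26.5% and 34.4% at 200 to 300. For the 167 lost sites of 300 to 500 they were 42.5%, 19.2% and 31.7%, and for retained sites of that class 75.9%, 72.7% and 76.9%. These differences by class were not tested.

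Single sites moved in both directions. Of the 1730 lost sites with H3K27ac in DMSO, 1006 (58.2%) kept an H3K27ac site at both GW3965 times, 156 (9.02%) at 24 h alone and 275 (15.9%) at 48 h alone, while 293 (16.9%) had none at either time. Among retained sites with H3K27ac the corresponding shares were 87.5%, 4.14%, 5.20% and 3.13%. With rosiglitazone, 1265 of the 1730 sites (73.1%) had H3K27ac at both times and 214 (12.4%) at neither. In the opposite direction, 637 lost sites without H3K27ac in DMSO had a site at 24 or 48 h of GW3965. No H3K27ac site in any of the 5 groups was found at 2758 lost sites (47.3%), against 13.7% of retained sites. H3K27ac scores at lost sites with a site were also lower, with a median lower score of 204 against 445.

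Among the 293 lost sites with H3K27ac in DMSO and at neither GW3965 time, the strongest RNAP2 was at chr10:11580757-11582195, described above. H3K27ac there scored 114 and 191 with DMSO and had a peak of 390 in the first library of 24 h of GW3965. The 4 next strongest were chr19:46365196-46368050 (RNAP2 567 and 544 with DMSO), chr1:12599348-12601150 (528 and 517), chr1:219883797-219884691 (487 and 492) and chr1:3229302-3230368 (467 and 416). Their H3K27ac scores with DMSO were 248 and 766, 110 and 499, 125 and 144, and 110 and 378. At 3 of the 4 the first library of 24 h of GW3965 still had an H3K27ac peak, scoring 880, 115 and 441, and the second had none. Thus only the site chr1:219883797-219884691 lacked H3K27ac peaks in all 4 GW3965 libraries. With rosiglitazone, 2 of the 4 sites had an H3K27ac site, chr19:46365196-46368050 at 24 h (635 and 140) and chr1:3229302-3230368 at 48 h (287 and 193). At chr1:219883797-219884691 LXRA scored 1893 and 466 at 2 h of GW3965, and LXRB 173 and 151.

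**Figure D3:**
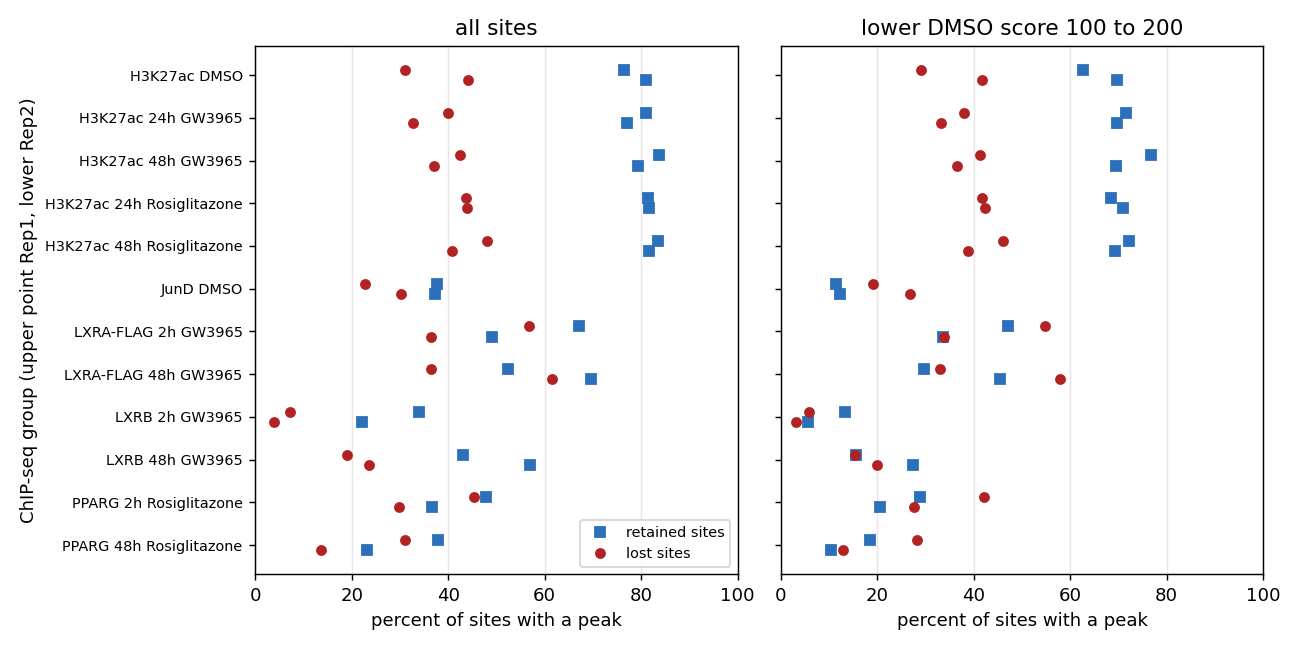
Each point is 1 ChIP-seq library and gives the percent of lost sites (red circles) or retained sites (blue squares) that overlap one of its peaks, for all sites (left) and for sites with a lower DMSO RNAP2 score of 100 to 200 (right). H3K27ac is less frequent at lost sites in all 10 libraries in both panels. Both JunD libraries change sides, from 22.8% and 30.3% against 37.6% and 37.3% on the left to 19.1% and 26.8% against 11.3% and 12.4% on the right. All LXRA and PPARG libraries change sides too, narrowly in the second LXRA library of 2 h (33.9% against 33.7% on the right).

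JunD occupied 1156 lost sites, or 19.8% (18.8% to 20.9%), against 32.7% of retained sites. This order turned once sites of like RNAP2 score were compared. At a lower score of 100 to 200, JunD was present at 16.4% of lost and 8.12% of retained sites. From the lowest class to 300 to 500 the shares at lost sites were 10.7%, 17.6%, 22.4%, 32.6% and 52.7%, and at retained sites 4.87%, 6.65%, 9.77%, 18.5% and 29.2%, so that lost sites had the higher share in all 5 classes. Both JunD libraries showed it at a lower score of 100 to 200, with peaks at 19.1% and 26.8% of lost and 11.3% and 12.4% of retained sites. The excess was seen both with H3K27ac in DMSO (8.30% against 3.92%) and without it (19.6% against 14.9%) in the same score range. With 2 JunD libraries, all from DMSO-treated cells, no test over libraries was made, and JunD after GW3965 was not analysed here.

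JunD at lost sites was mostly found without acetylation. Of the 1156 lost sites with JunD, 931 had no H3K27ac site in DMSO and 225 had one. Of all lost sites, 70.3% had no H3K27ac site. Among retained sites with JunD, 1768 lacked H3K27ac and 3351 carried it, where 75.1% of all retained sites carried it. At a lower score of 100 to 200 the JunD sites of both classes mostly lacked H3K27ac, with 680 without and 112 with it among lost sites and 149 and 63 among retained sites. Lost sites with JunD had a somewhat higher RNAP2 score than those without (medians of the lower score 161 and 133). JunD itself was weaker at lost than at retained sites, with a median lower score of 161 against 238.

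LXRA sites were common at lost sites, and LXRB sites were few. LXRA was present at 2058 lost sites (35.3%) at 2 h and at 2055 (35.2%) at 48 h of GW3965, against 48.7% and 51.7% of retained sites. The LXRA libraries of a group differed widely, with peaks at 56.7% and 36.3% of lost sites at 2 h and at 36.5% and 61.5% at 48 h, so that the 2 times could not be told apart. At a lower RNAP2 score of 100 to 200, LXRA was present at 32.8% of lost and 33.1% of retained sites at 2 h, and at 31.7% and 28.3% at 48 h. In the 5 score classes from 100 to 500 the LXRA share of 48 h was 25.5%, 30.8%, 41.1%, 47.7% and 73.1% at lost sites and 21.4%, 24.2%, 32.4%, 40.5% and 54.3% at retained sites, with overlapping 95% Wilson intervals in the lowest class.

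LXRB was present at 129 lost sites (2.21%) at 2 h and at 765 (13.1%) at 48 h of GW3965, against 20.2% and 40.1% of retained sites. By library, LXRB peaks lay at 7.29% and 3.91% of lost sites at 2 h and at 18.9% and 23.6% at 48 h, so the libraries of the 2 times did not overlap. The libraries of 48 h also held more LXRB peaks in all, 11100 and 14788 against 7583 and 4555, and the part of this difference in the rise at lost sites was not tested. Between sites of like RNAP2 score, the LXRB share of 2 h was lower at lost sites in all 5 classes, with 1.71%, 1.66%, 1.65%, 4.40% and 5.39% against 4.62%, 3.12%, 5.81%, 9.68% and 16.6% of retained sites, and the 95% Wilson intervals overlapped in the class 120 to 150 alone. At 48 h the share was 7.36%, 8.83%, 15.9%, 23.4% and 43.7% at lost sites and 8.27%, 9.09%, 16.1%, 24.3% and 39.3% at retained sites over the 5 classes, with overlapping 95% Wilson intervals in each class. By library at a lower score of 100 to 200, LXRB peaks of 48 h lay at 15.5% and 20.02% of lost and 15.7% and 27.4% of retained sites.

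**Figure D4:**
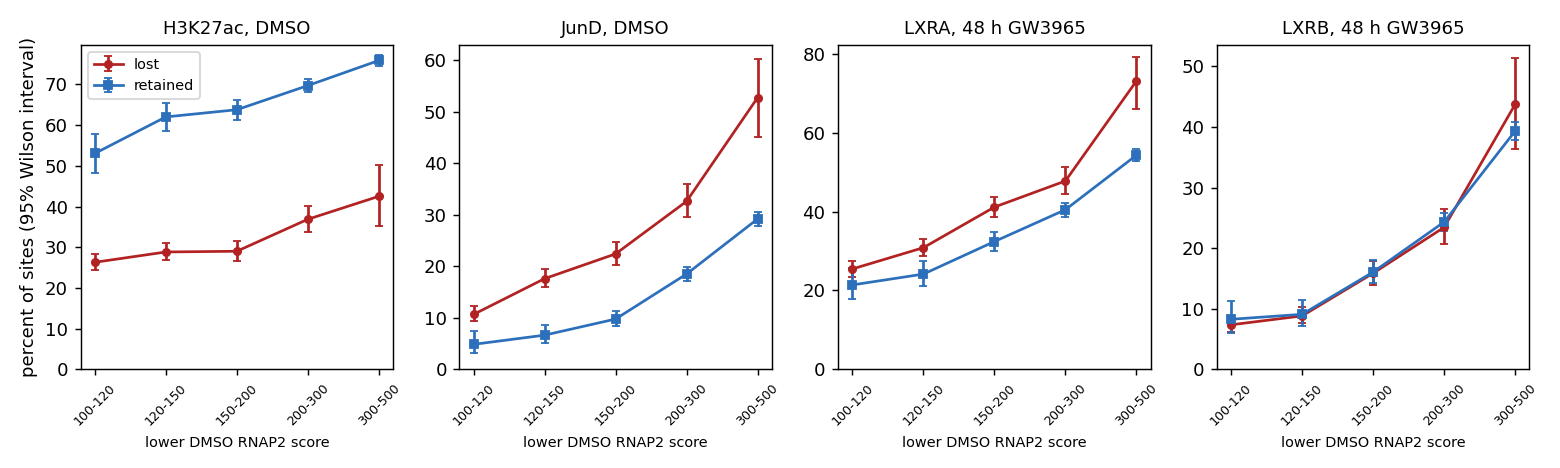
Points give the percent of lost (red circles) and retained sites (blue squares) with a site of each mark, in 5 classes of the lower DMSO RNAP2 score (−10·log10 p), with 95% Wilson intervals that cover counting error only. Lost sites lie below retained sites for H3K27ac, above them for JunD and for LXRA at 48 h, and on the same curve for LXRB at 48 h.

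Receptors and JunD combined unevenly at lost sites. LXRA or LXRB was present at 3081 lost sites (52.8%) at any time, and both receptors at 48 h at 596 (10.2%, against 33.8% of retained sites). Of these 596 sites 38.3% had JunD and 60.1% had PPARG at 2 or 48 h of rosiglitazone. JunD and an LXR occurred together at 785 lost sites and JunD without an LXR at 371. PPARG was present at 26.5% of lost sites at 2 h and 13.5% at 48 h of rosiglitazone, against 35.2% and 23.1% of retained sites, and at a lower score of 100 to 200 the shares were 24.3% against 18.1% and 12.6% against 10.1%. No H3K27ac site of DMSO, JunD or LXR site was found at 1630 lost sites (27.9%, against 6.59% of retained sites), and 640 lost sites (11.0%) had no site of any of the 14 other groups.

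Beside the 2 sites on chromosome 10 described above, the 4 next strongest lost sites with both LXRs at 48 h had scores between 500 and 575 in the DMSO libraries. They were chr20:3102961-3104740, chr22:46923723-46924668, chr5:166721634-166722940 and chr17:60858731-60859823. LXRA scored 323 and 361, 184 and 426, 370 and 1053, and 552 and 1569 at these sites at 48 h, and LXRB 128 and 118, 145 and 157, 335 and 233, and 209 and 250. RNAP2 peaks were present at all 4 in both libraries of 24 h of rosiglitazone, with scores of 256 to 768. The site on chromosome 5 lay 571238 bp from the nearest GW3965 RNAP2 site, and it had no H3K27ac peak except 1 of 136 in the second library of 48 h of GW3965.

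The strongest lost site with JunD and no LXR site was the one at chr3:98557903-98561353 described above. Of the 4 next strongest, the site chr1:12668116-12671304 scored 434 and 781 with DMSO, 571 and 578 at 24 h and 1478 and 562 at 48 h of rosiglitazone, and 1 GW3965 library had a peak, of 120. The site chr1:94682981-94686082, inside the run of 14, scored 407 and 583 with DMSO, 2037 and 3100 at 24 h and 1726 and 2397 at 48 h of rosiglitazone. With GW3965 it had single peaks of 500 at 24 h and 153 at 48 h. JunD scored 699 and 477 there. The other 2 differed from this: one scored 417 and 590 with DMSO, 1237 and 1371 at 24 h and 345 in 1 library of 48 h of rosiglitazone, and still had peaks of 655 at 24 h and 315 at 48 h of GW3965. The last scored 490 and 412 with DMSO, 356 and 525 at 24 h and 214 and 320 at 48 h of rosiglitazone, and had 1 GW3965 peak, of 212. Scores depend on sequencing depth, which is not known for these libraries, so these values are set side by side without a fold change.

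Many lost sites had RNAP2 with rosiglitazone. An RNAP2 site was present at 2951 lost sites (50.6%, 49.3% to 51.9%) at 24 h of rosiglitazone and at 1997 (34.2%, 33.0% to 35.5%) at 48 h, against 83.0% and 80.3% of all other DMSO sites. Of all DMSO sites, 24.1% had no RNAP2 site at 24 h and 29.8% had none at 48 h of rosiglitazone. Both times shared 1575 lost sites (27.01%), 1376 had a site at 24 h alone and 422 at 48 h alone. At 2459 (42.2%) neither time had a site, where 17.1% of all DMSO sites were without a site at both rosiglitazone times. The same DMSO libraries define the start of both comparisons. With the score the share rose from 37.7% to 79.6% at 24 h and from 22.5% to 73.7% at 48 h between the classes 100 to 120 and 300 to 500, and was 75% at both times for the 20 lost sites of 500 and over. RNAP2 with rosiglitazone at these lost sites had a median lower score of 185 at 24 h and 156 at 48 h.

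Lost sites with JunD more often had RNAP2 with rosiglitazone than lost sites without it. Of the 1156 lost sites with JunD, 84.3% had an RNAP2 site at 24 h and 57.5% at 48 h of rosiglitazone, against 42.3% and 28.5% of the 4676 without JunD. The 596 lost sites with LXRA and LXRB at 48 h had one at 74.8% and 65.8%. At 24 h this held in all 5 score classes, with 77.5%, 75.2%, 88.3%, 92.1% and 93.2% of sites with JunD and 32.9%, 38.2%, 51.5%, 58.5% and 64.6% of sites without. At 48 h the shares were 39.6%, 47.2%, 61.7%, 69.7% and 77.3% with JunD and 20.4%, 24.8%, 32.5%, 46.7% and 69.6% without, and the intervals of the last class overlapped. At a lower score of 100 to 200, retained sites showed the same order, with 91.0% against 66.5% at 24 h and 82.5% against 64.5% at 48 h.

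At lost sites each single library gave this order. At lost sites with a peak in the first JunD library, the 2 libraries of 24 h of rosiglitazone had RNAP2 peaks at 88.3% and 90.7%, against 56.3% and 57.8% of lost sites without that JunD peak. For the 2 libraries of 48 h the shares were 60.7% and 81.9% against 40.2% and 52.1%. With the second JunD library they were 88.5% and 85.4% against 52.8% and 56.6% at 24 h, and 60.0% and 77.6% against 38.2% and 50.8% at 48 h. JunD was measured with DMSO, RNAP2 here with rosiglitazone, and sites are not replicates, so no p-value is given. The lost sites with RNAP2 at neither rosiglitazone time had JunD in 5.65% of cases, against 39.6% of those with RNAP2 at both times.

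**Figure D5:**
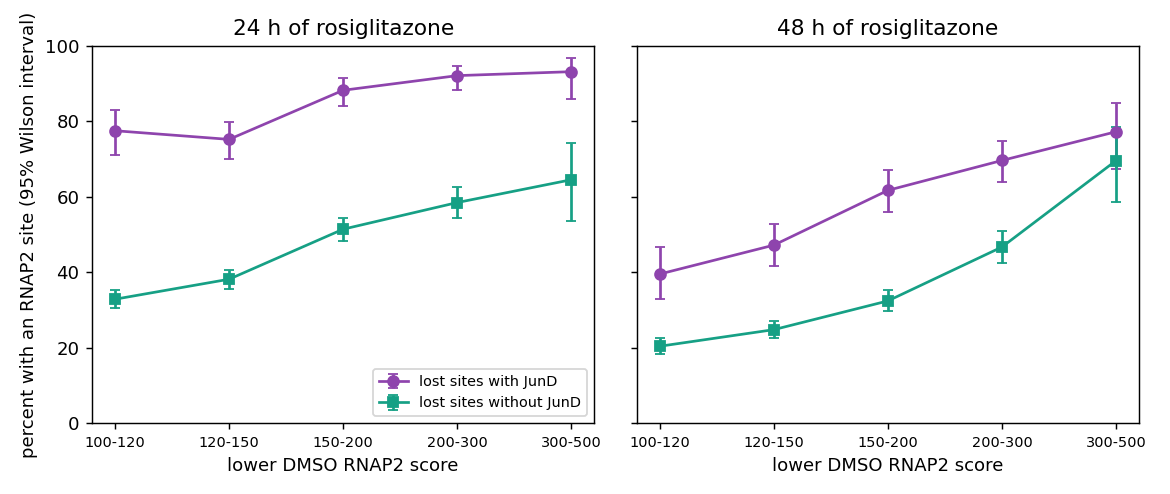
Points give the percent of lost sites with an RNAP2 site at 24 h (left) and 48 h (right) of rosiglitazone, for lost sites with JunD (purple circles) and without it (green squares), by class of the lower DMSO RNAP2 score (−10·log10 p), with 95% Wilson intervals. At 24 h the sites with JunD lie at 75.2% to 93.2% and those without at 32.9% to 64.6%, and at 48 h the intervals meet only in the class 300 to 500.

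RNA of the genes that act on RNAP2 was read from the RNA-seq counts for a list of 28 genes, of which 27 could be tested and POLR2A was not analysed here. Each drug was compared with DMSO of the same time with edgeR's quasi-likelihood test, and a gene counted as changed at a Benjamini-Hochberg adjusted p under 0.01 over all genes tested. Rose and fell mean higher or lower than that DMSO, and not a change between the times. In bulk samples less RNA per cell and fewer cells of a kind cannot be told apart. At 24 h of GW3965, 1 gene of the list rose (NR1H3) and 0 fell, or 3.70% of the list, beside 2.73% of all 21781 genes tested (1.86% higher and 0.868% lower). At an unadjusted p under 0.05 the 24 h counts were 1 higher and 1 lower, and DESeq2 also gave 0 lower. At 48 h, 2 rose and 9 fell, or 40.7%, beside 33.6% of all 22470 genes (16.1% higher and 17.5% lower). The median log2 fold change of the list at 48 h was −0.04, and that of all genes 0.00.

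Genes of pause release were lower at 48 h of GW3965 in 4 of 7 cases, beside 17.5% of all 22470 genes tested. Their median log2 fold change was −0.37. CCNT1 (ENSG00000129315.5), a cyclin of P-TEFb, was measured at 53.1, 51.8, 57.4 and 51.1 CPM with DMSO and at 29.5, 28.4, 29.1 and 30.9 CPM with GW3965. It was lower than with DMSO of 48 h by 0.85 ± 0.06 (SE, n = 4 per group) on the log2 scale (edgeR adjusted p = 1.61e-09). CCNT2, the other cyclin of P-TEFb, was at 40.5 CPM with DMSO and 26.5 CPM with GW3965 (log2 fold change −0.61, edgeR adjusted p = 6.35e-07). LARP7, which stabilizes the small nuclear RNA that holds P-TEFb inactive, fell from 30.7 to 23.7 CPM (log2 fold change −0.37, edgeR adjusted p = 0.000139). For these 3 genes no GW3965 library of 48 h reached the level of any DMSO library of 48 h. The share of all genes with such a separation was not counted. CDK9, the kinase itself, had a log2 fold change of −0.04 (edgeR adjusted p = 0.623), and the P-TEFb inhibitor HEXIM1 one of −0.02 (edgeR adjusted p = 0.852).

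POLR2C and POLR2D, subunits of the polymerase, had log2 fold changes of −0.26 (edgeR adjusted p = 0.00339) and −0.36 (edgeR adjusted p = 0.000781) at 48 h, and the other 9 subunit genes tested did not pass. POLR2C no longer passed when DMSO replicate 1 or 3 or GW3965 replicate 1 or 4 was left out. Of the NELF subunits, NELFB was at 200 and 201 CPM with DMSO and GW3965 at 24 h, and NELFE at 69.0 and 71.7 CPM. At 48 h NELFB was at 134 and 174 CPM (log2 fold change 0.37, edgeR adjusted p = 5.01e-05) and NELFE at 87.3 and 70.6 CPM (−0.31, edgeR adjusted p = 0.00153). NELFA and NELFCD did not pass in this fit but passed with DESeq2, and both of them and SUPT5H, a subunit of DSIF, passed in a fit of the DMSO and GW3965 libraries alone.

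The factors mapped at the lost sites also changed in RNA. JUND was measured at 256, 242, 268 and 284 CPM with DMSO and at 174, 152, 159 and 162 CPM at 48 h of GW3965. It was lower than with DMSO of 48 h by 0.70 ± 0.10 on the log2 scale (edgeR adjusted p = 1.23e-05). At 24 h the means were 108 CPM with DMSO and 125 CPM with GW3965 (log2 fold change 0.20, edgeR adjusted p = 0.417). JUND was thus higher at 48 h than at 24 h with DMSO and with GW3965, a difference that was not tested. NR1H3, which encodes LXRA and is itself a known LXR target, rose from 71.9 to 154 CPM at 24 h (log2 fold change 1.10, edgeR adjusted p = 1.55e-08) and from 76.1 to 238 CPM at 48 h (1.65 ± 0.06, edgeR adjusted p = 2.24e-13). NR1H2, which encodes LXRB, was at 63.5 CPM with DMSO and 53.2 CPM with GW3965 at 48 h (−0.25, edgeR adjusted p = 0.000991). At 24 h these means were 46.8 and 50.3 CPM.

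With the other LXR agonist and with rosiglitazone, the list behaved as follows, against the same DMSO libraries. At 48 h of T0901317, 1 gene rose and 10 fell, beside 30% of all genes changed (14% higher and 16.1% lower), with log2 fold changes of −0.75 for CCNT1 and −1.06 for JUND. At 48 h of rosiglitazone 11 genes rose and 1 fell, beside 25.5% of all genes changed (12.3% higher and 13.1% lower). CCNT1 had a log2 fold change of 0.05 (edgeR adjusted p = 0.536) and JUND one of 0.30 (edgeR adjusted p = 0.0229) with rosiglitazone. NR1H3 was also higher with rosiglitazone, by a log2 fold change of 0.81 at 24 h (edgeR adjusted p = 3.48e-07) and 1.09 at 48 h (edgeR adjusted p = 9.28e-11). With T0901317 its log2 fold changes were 0.74 and 1.21. Which genes lie at the lost sites, and their RNA, was not analysed here.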

How the data were processed

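ChIP-seq libraries were sequenced single-end, and per the file headers the authors ran MACS on every replicate with an input library as control. The deposited score is −10·log10 of each peak's p-value, with a lowest score of 100. For RNA-seq, the authors deposited whole-number counts per Ensembl gene, while the counting program and strand setting are not stated in the sources used here. The submitters' processing notes name Bowtie, MACS, TopHat, Cufflinks and hg19 without versions or roles, and the study compared genes with DESeq.

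Peaks were read as 0-based BED intervals and printed 1-based. In Python 3.11.15 (numpy 2.4.6, pandas 2.3.3, SciPy 1.17.1, matplotlib 3.10.9), overlapping peaks (at least 1 bp) of both replicates were merged into sites, and DMSO RNAP2 sites without a GW3965 site of 24 or 48 h were taken as lost. Wilson intervals at 95% cover counting error only, since neighboring sites are not independent and read depth is unknown. H3K27ac was tested over libraries by an exact permutation test. Sites named were the 6 lost sites with the highest lower DMSO score, up to 4 more each with H3K27ac in DMSO and at neither GW3965 time, with both LXRs at 48 h and with JunD but no LXR, and the 3 nearest on either side of the rule's edge. Coordinates of 4 sites chosen by this rule are left out. Runs of sites and single chromosomes were picked with their values known. The lost sites and gene lists were chosen with earlier results of these data known.

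RNA counts were fitted per time point (16 libraries, 4 groups) in R 4.3.3 with edgeR 4.0.16, using filterByExpr, TMM factors and quasi-likelihood tests, and p-values were adjusted by Benjamini-Hochberg over all genes. CPM values use the TMM factors. DESeq2 1.42.0 was an alternative. Of the gene list, 1 gene enters the counts but is not reported here. In a test on simulated data edgeR recovered 100% of 200 well-counted genes changed 2-fold or 4-fold among 21374 genes at 24 h. It also called 3 genes falsely. The simulation used 1 spread for all genes, and changes under 2-fold, as for most genes reported here, were not simulated. Replicate numbers did not pair the samples: deviations of same-numbered DMSO and GW3965 libraries correlated between −0.103 and 0.065. No label says that replicates were separate cultures, so p-values measure the spread between these samples. H3K36me3 and input libraries, genes and sequence at the sites (which need an hg19 annotation and genome) and differences in read depth at sites were not analysed here. Alternatives covered the overlap, the score floor, single-library peaks, comparison sites, score range, the central 500 bp, gene tool, scaling, filter and libraries.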

Additional observations from a re-analysis of the deposited data

Results flagged for a closer look

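Of 216 groups of 4 RNA-seq libraries examined over the genes of the list, 10 (4.63%) had 1 library apart from the other 3 by Dixon's criterion, where chance sets apart about 1 in 20. Among GW3965 libraries of 24 h these were POLR2H in replicate 4 (66.5 CPM), POLR2K in replicate 3 (14.9 CPM), HEXIM2 in replicate 3 (2.99 CPM) and JUND in replicate 1 (84.9 CPM, against a mean of 125 CPM). Without that replicate JUND had a log2 fold change of 0.35 at 24 h (edgeR adjusted p = 0.000493). Among DMSO libraries of 24 h they were NELFB and SUPT5H in replicate 3 (181 and 249 CPM) and HEXIM2 in replicate 1 (2.67 CPM). The others were HEXIM2 in rosiglitazone replicate 3 at 24 h (3.03 CPM), CDK9 in T0901317 replicate 1 at 48 h (44.4 CPM) and POLR2K in rosiglitazone replicate 1 at 48 h (15.4 CPM).

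In 2 genes all 4 GW3965 libraries lay on one side of the DMSO mean at 24 h and on the other at 48 h, while the GW3965 and DMSO libraries themselves overlapped at 24 h. NR1H2 had a log2 fold change of 0.10 at 24 h and −0.25 at 48 h, and POLR2L −0.088 at 24 h and 0.097 at 48 h. The difference between the times was not tested.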

How the results depend on the processing

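The number of lost sites was 3434 (21.3%) with peaks scoring at least 200, 2241 (8.43%) without a peak in any GW3965 library, and 24.4% of DMSO sites when a GW3965 site had to cover 50% of the site. Leaving out single RNAP2 libraries gave 3997 to 10290 lost sites (15.0% to 29.4%). The floor of 200 removed weaker peaks from all ChIP-seq libraries, LXRB and rosiglitazone included, and so did not pick the stronger lost sites. With this floor LXRB at 48 h lay at 9.23% of lost sites. RNAP2 at 24 h of rosiglitazone lay at 53.4% with 50% coverage and also with the floor of 200 on all peaks. It lay at 42.0% without any GW3965 peak and at 46.3% at a lower score of 100 to 200. In that score range the difference between lost and retained sites turned from negative to 8.29 points for JunD and 3.38 points for LXRA at 48 h. The H3K27ac difference between GW3965 and DMSO turned to 2.74 points (exact permutation p = 0.533) with the floor of 200 on all peaks and to 3.12 points without the second DMSO library. With single libraries left out it ran from −5.49 to 3.12 points, H3K27ac of DMSO from 24.8% to 31.7%, JunD from 13.97% to 21.9%, LXRA at 48 h from 24.5% to 35.3%, LXRB at 48 h from 8.49% to 13.6%, and RNAP2 with rosiglitazone from 41.2% to 54.6% at 24 h and 25.8% to 39.4% at 48 h. The cause of these shifts was not tested.

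For the gene list, a replicate block gave the same counts as the fit without it (at 24 h, 1 gene higher and 0 lower, and at 48 h, 2 genes higher and 9 lower), and the replicate numbers share only a number. With single libraries left out, 1 to 2 genes were higher at 24 h. At 48 h DESeq2 gave 3 higher and 10 lower, and a fit of the DMSO and GW3965 libraries alone 3 higher and 11 lower. RNA of genes at lost sites and its alternatives were not run. Read depth at the sites is unknown, and 1752 lost sites had a lower score under 120.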
